A study of Mus musculus with 48 samples.

Results

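A group of 10 mast cell genes was followed by name through whole mouse skin over the hair cycle and through the ear. The genes were Cpa3, Mcpt4, Tpsb2, Cma1, Kit, Fcer1a, Ms4a2, Hdc, Mrgprb1 and Mrgprb2, named for their use as mast cell markers, and each was a single row among the 46983 genes of both tables. The RNA-seq libraries were made from total RNA of C57BL/6 mice by SMART-seq2, a full-length cDNA protocol. The skin table held 43 libraries in 18 groups of 2 or 3, which covered chin, ventral and dorsal skin at competent telogen (resting follicles able to re-enter growth), early, mid and late anagen (growth), catagen (regression) and refractory telogen (rest without response to growth signals). The ear table held 2 libraries of rostral ear skin in telogen, 3 of the ear cartilage/muscle complex and 2 of dorsal skin in competent telogen, and these last 2 were the same libraries as in the skin table, so that 48 distinct libraries were used. The labels gave no age, sex, treatment or genotype beyond the strain, and they did not say whether replicates were separate animals, so p-values measure only the spread between libraries.

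Mast cells are long-lived immune cells of connective tissue that lie in the dermis close to vessels, nerves and hair follicles. They mature under Kit ligand, bind IgE through a receptor of alpha, beta and gamma chains, and store histamine and neutral proteases in granules that are released on activation. Mouse skin holds the connective tissue type, which is known for chymases, tryptase and carboxypeptidase A3 and for Mrgprb2, the receptor for cationic peptides and drugs such as compound 48/80. In whole skin, fewer mast cells and less RNA per mast cell cannot be told apart.

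GATA factors are established regulators of mast cell genes, so promoters were searched for the letters AGATAA or AGATAG, or the same with a leading T (TGATAA or TGATAG), on either strand. These differ at the ends, so a stretch matches only 1 of them. A RefSeq promoter (build GRCm38.p6, 250 bases before to 50 after the start site) was found for 9 of the 10 genes, all but Tpsb2, and 8 of these 9 held at least 1 match, against 29.8% of 32851 promoters of the same length. The E-box CATGTG, also searched on both strands, stood in 1 of the 9, that of Fcer1a, against 14.2% of all promoters. The 250 bases before the start site are shown for 3 proteases, for Ms4a2 with its 3 matches and for Kit with none, each in the direction of transcription with the GATA matches in capitals.
Cpa3: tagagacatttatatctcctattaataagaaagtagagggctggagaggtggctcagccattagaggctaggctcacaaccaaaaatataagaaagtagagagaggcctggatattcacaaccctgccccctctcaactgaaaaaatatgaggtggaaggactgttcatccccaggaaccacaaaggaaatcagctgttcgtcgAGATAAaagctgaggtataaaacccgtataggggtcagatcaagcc
Mcpt4: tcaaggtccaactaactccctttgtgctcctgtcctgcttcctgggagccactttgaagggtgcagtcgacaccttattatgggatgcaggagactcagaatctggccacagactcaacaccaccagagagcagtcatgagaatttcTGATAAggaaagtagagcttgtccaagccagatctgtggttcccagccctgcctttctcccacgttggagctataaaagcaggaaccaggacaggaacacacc
Cma1: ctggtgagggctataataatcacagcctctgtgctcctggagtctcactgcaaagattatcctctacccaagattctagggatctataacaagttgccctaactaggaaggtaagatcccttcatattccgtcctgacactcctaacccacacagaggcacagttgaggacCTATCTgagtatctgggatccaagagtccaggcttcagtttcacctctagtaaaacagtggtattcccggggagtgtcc
Ms4a2: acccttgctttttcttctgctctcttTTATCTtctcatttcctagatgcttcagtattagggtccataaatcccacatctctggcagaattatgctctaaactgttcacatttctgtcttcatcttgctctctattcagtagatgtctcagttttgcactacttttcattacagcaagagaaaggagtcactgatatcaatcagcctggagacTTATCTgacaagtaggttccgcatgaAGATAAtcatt
Kit: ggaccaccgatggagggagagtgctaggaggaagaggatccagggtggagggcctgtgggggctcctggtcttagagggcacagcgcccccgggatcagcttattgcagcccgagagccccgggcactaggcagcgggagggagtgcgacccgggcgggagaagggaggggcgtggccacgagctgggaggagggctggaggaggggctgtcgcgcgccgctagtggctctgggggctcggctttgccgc
The Cpa3 stretch is chr3:20242182-20242431, minus strand, and its match began 46 bases before the start site. The Mcpt4 stretch is chr14:56062311-56062560, minus strand, with a match 103 bases before the start, and that of Cma1 is chr14:55944676-55944925, minus strand, with a match 79 bases before it. The Ms4a2 stretch is chr19:11623720-11623969, minus strand, with matches 224, 37 and 11 bases before the start. The Kit stretch, chr5:75574737-75574986 on the plus strand, held none of the letters, and the GC content of its 300 bases was 69% against a median of 52.7% over all promoters. The letters searched are rich in A and T, and the promoters with a match had 38% to 51.7% GC, all under that median. The part of base composition in the count of matches was not tested. A match is a description of the letters and not of a bound site.

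Some libraries stood apart from their labels, by genes chosen after their values were seen. The libraries labelled chin late anagen and dorsal competent telogen lay 0.425 to 0.454 apart (root mean square difference in log2(FPKM + 1) over the genes tested), within the range of replicates (0.398 to 0.695), while libraries of different domains at the same stage had a median distance of 0.713. Hoxb7, a trunk Hox gene, was 7.25 and 8.41 FPKM in the libraries labelled chin late anagen and at most 0.77 in every other chin library. The pigment gene Tyr was 9.77 to 15.49 FPKM in the libraries labelled competent telogen but 1.77 to 5.17 in refractory telogen, and it was 1.88 to 2.52 in those labelled ventral early anagen. One ventral catagen library carried an ear location tag against its title. A value printed for a contrast averaged over stages is also given without these libraries where that ends its call or moves it by over 1.5 times. Contrasts that are only counted can move as well. Values of a single stage are those of the libraries as labelled. The granule proteases were set beside basophil genes, since basophils share several of the genes followed here. Mcpt8 and Prss34, defining genes of basophils, reached at most 0.29 and 0.51 FPKM in any skin library. The summed level of 3 basophil genes ran from 0 to 1.37 FPKM against 12.7 to 214 for the 4 granule proteases. Fcer1a and Ms4a2, at most 0.63 and 1.15 FPKM, lay within the range of the basophil sum, so the comparison does not cover them.

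The 4 granule proteases had the highest medians of the 10 genes over the 43 libraries, and all of them were lowest in dorsal skin at mid anagen. In that group Kit, at a mean of 5.69 FPKM, was above all 4. Cma1 and Mcpt4, both chymases, reached group means of 62.2 and 58.7 FPKM in chin skin at refractory telogen and fell to 3.91 and 4.56 in dorsal mid anagen, ranges of 15.9-fold and 12.9-fold over the 18 groups. Tpsb2, the tryptase mMCP-6, ran from 42 to 2.76 FPKM between the same groups. Cpa3, carboxypeptidase A3, was highest in ventral mid anagen at 26.8 FPKM, and its lowest mean, in dorsal mid anagen, was 2.39 FPKM. Each of the 4 was above 0.5 FPKM in all 43 libraries.

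Neighbours in the order of levels were often not separable. Of the 17 neighbouring pairs of groups, the libraries overlapped in 13 for Cpa3, 12 for Mcpt4, 13 for Tpsb2 and 10 for Cma1. For Cma1 the upper 3 groups, chin refractory telogen, ventral mid anagen and ventral competent telogen, overlapped in turn, and all stood apart from the next, dorsal early anagen at 37.2 FPKM. For Cpa3 the same 3 groups led, in another order.

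**Figure D1:**
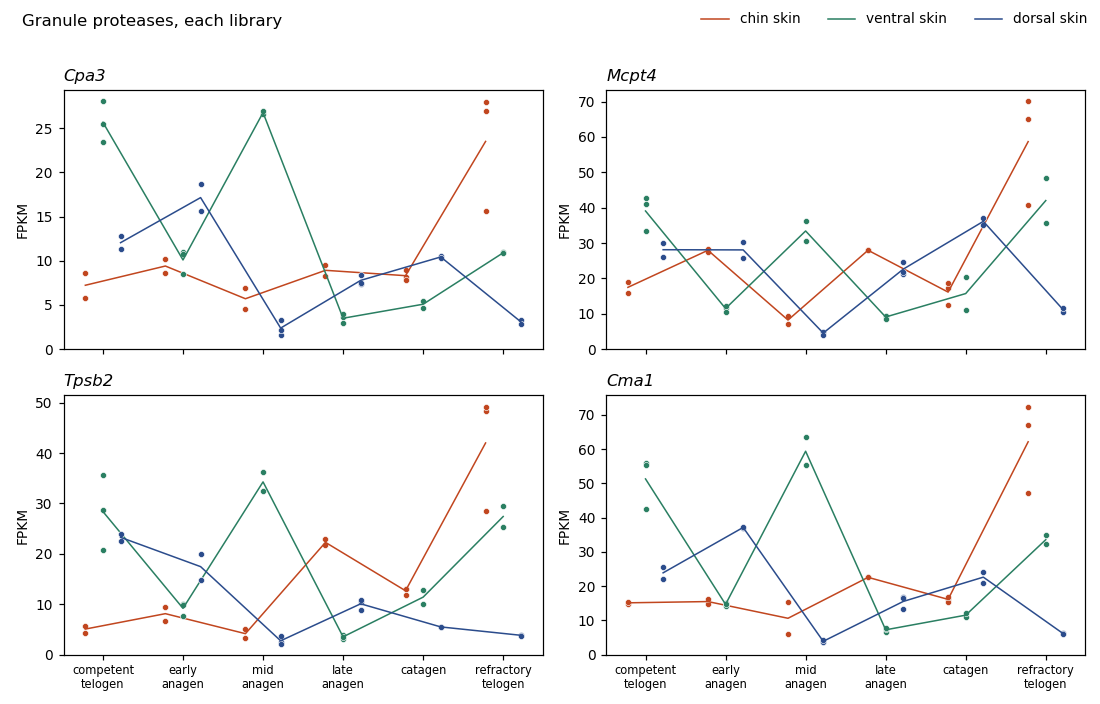
FPKM of Cpa3, Mcpt4, Tpsb2 and Cma1 (vertical axes from 0) at the 6 stages in chin, ventral and dorsal skin. Each point is a library and each line joins the group means, with all 4 genes highest in chin skin at refractory telogen among the chin groups and lowest in dorsal skin at mid anagen among all groups.

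The levels of the proteases depended on domain and stage together. All 10 genes passed the test of the domain by stage interaction (limma on log2(FPKM + 1), Benjamini-Hochberg adjusted p from 4.15e-15 for Cma1 to 0.0137 for Fcer1a), as did 73.3% of the 21257 genes tested. The share is high for the whole transcriptome, so the count of 10 is read against it. Without the libraries labelled competent telogen and early anagen 9 of the 10 passed, and adjusted p for Fcer1a was 0.287. Without those labelled chin late anagen and dorsal competent telogen, over the stages that keep every domain, 9 passed, and adjusted p for Mrgprb2 was 0.0808. In the main fit Fcer1a met the filter of 0.5 FPKM only through a ventral refractory telogen library and a chin catagen library.

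Mid anagen gave the widest gap between ventral and dorsal skin. Cpa3 was 26.59 and 26.92 FPKM in the ventral libraries against 1.65, 2.21 and 3.30 in the dorsal ones, with 6.87 and 4.54 in chin skin between them. Cma1 was 55.34 and 63.48 FPKM in ventral skin, 15.31 and 5.96 in chin skin and 3.83, 3.61 and 4.28 in dorsal skin. No ventral library overlapped another domain in either gene. Ventral minus dorsal differences on the log2(FPKM + 1) scale, which understates the change of low genes, were 3.62 ± 0.20 (SE) for Cma1, 3.25 ± 0.22 for Tpsb2, 3.06 ± 0.20 for Cpa3 and 2.63 ± 0.20 for Mcpt4, with adjusted p between 7.87e-14 and 5.31e-11. In all, 7 of the 10 genes were higher in ventral than dorsal mid anagen, where 12.1% of all genes tested were higher, and Kit was lower, where 16.1% were lower. The median difference was 1.05 over the 10 genes and -0.06 over all genes. Scaling by the median of ratios moved the share of all calls on the higher side from 42.9% to 53.2% and left the members at 7 higher and 1 lower. Among the 3 domains together mid anagen gave 7 calls (38.1% of all genes) and late anagen 5 (20.8%). Catagen gave 5 calls (42.9%) and refractory telogen 8 (42.2%).

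Markers of other dermal cells moved with this gap. The summed level of 6 dermal fibroblast genes was 3860 to 3880 FPKM in ventral and 970 to 1040 FPKM in dorsal mid anagen, and that of 8 macrophage genes was 186 to 215 and 72.8 to 77.6 FPKM. None of the 14 genes was at 0 in either group. The part of dermal content in the protease difference was not tested.

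At refractory telogen chin skin held the most and dorsal skin the least of all 4 proteases by group mean. Tpsb2 was 48.38, 28.51 and 49.13 FPKM in chin skin, 25.36 and 29.47 in ventral skin and 3.92 and 3.78 in dorsal skin. Cma1 was 72.34, 47.22 and 66.95 FPKM in chin skin, 34.97 and 32.20 in ventral skin and 6.33 and 5.90 in dorsal skin. For Cma1 the 3 domains did not overlap, while for Tpsb2 the lowest chin value lay between the ventral ones, and dorsal skin stood apart in both. Chin minus dorsal differences were 3.13 ± 0.20 for Cma1 (adjusted p = 1.68e-12), 3.11 ± 0.22 for Tpsb2 (8.19e-12), 2.54 ± 0.20 for Cpa3 (5.27e-11) and 2.27 ± 0.20 for Mcpt4 (5.19e-10). Of the 10 genes 7 were higher in chin than dorsal skin, where 27.2% of all genes were higher, 5 were higher in ventral than dorsal skin, where 8.1% were higher, and 6 were higher in chin than ventral skin, where 24.7% were higher. None was lower in any of these pairs, where 7.61%, 5.57% and 6.06% of all genes were lower. The ventral minus dorsal count includes Fcer1a, which lies near its detection limit. It met the filter only through a library of this ventral group and a chin catagen library, so its call is not independent of the filter. After quantile normalization the share of all calls on the higher side went from 78.1% to 48.8% in chin minus dorsal, with the members still at 7 and 0, and from 80.3% to 45.6% in chin minus ventral, where the members gave 3 higher and 1 lower. Rescaling to TPM moved the ventral minus dorsal share from 59.3% to 39.4% and left the members at 5 and 0. Summed macrophage genes were 494 to 864 FPKM in chin, 347 to 361 in ventral and 77.9 to 82.2 FPKM in dorsal refractory telogen, and summed muscle genes were 8700 to 13500, 641 to 751 and 2560 to 2690 FPKM. Replicate 2 of chin skin, the lowest of its group in all 4 proteases, was also the lowest in the macrophage and muscle sums, and the share of these tissues in the result was not tested.

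The order reversed at other stages. At late anagen Mcpt4 was 9.29, 9.43 and 8.58 FPKM in ventral skin against 21.19, 24.76 and 21.95 in dorsal skin, and all 4 proteases were lower in ventral skin by 0.97 to 1.29 (adjusted p from 5.68e-05 to 0.00106), where 1.67% of all genes were lower, while 0 members were higher, where 1.47% were. At catagen Mcpt4 was 35.12 and 37.16 FPKM in dorsal skin, above 11.17 and 20.29 in ventral and 12.60, 17.22 and 18.60 in chin skin. Tpsb2 went the other way at catagen: it was 5.58 and 5.44 FPKM in dorsal skin but 10.03 and 12.81 in ventral and 13.10, 11.86 and 13.10 in chin skin, 1.07 ± 0.22 higher in chin (adjusted p = 0.000171) and 0.92 ± 0.24 higher in ventral skin (0.00262). Without the ventral catagen library that carried the ear tag, ventral minus dorsal was 1.09 for Tpsb2 (adjusted p = 0.00545) and -0.80 for Mcpt4 (0.0106), against -1.21 with it. At this stage Tpsb2 and Mcpt4 thus differed between chin and dorsal skin in opposite directions.

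**Figure D2:**
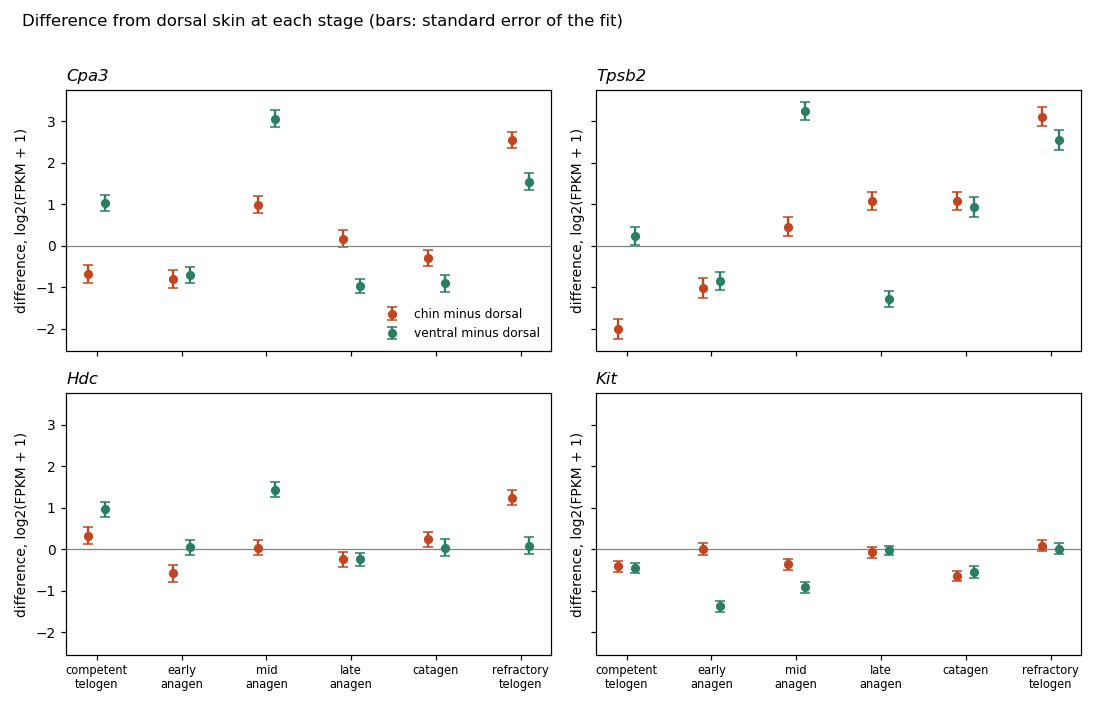
Chin minus dorsal and ventral minus dorsal differences in log2(FPKM + 1) at the 6 stages for Cpa3, Tpsb2, Hdc and Kit. Points are fitted differences, bars their standard errors, and the line at 0 is no difference, with Cpa3 and Tpsb2 more than 3 above dorsal skin in ventral mid anagen and below it at early anagen.

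Early anagen and competent telogen involve the libraries that stood apart. At early anagen Cma1 was 37.13 and 37.19 FPKM in dorsal skin against 14.88 and 16.15 in chin and 14.28, 14.98 and 14.84 in ventral skin. The 10 genes gave 7 calls among domains at this stage, where 51.6% of all genes were called. Without the libraries labelled ventral early anagen only chin and dorsal skin were compared, with 4 calls. In the full fit that pair gave 0 members higher and 4 lower in chin skin, where 2187 and 3552 of 21257 genes were. At competent telogen all 10 genes, Fcer1a among them, were called among domains, where 54% of all genes were called. Without the libraries labelled dorsal competent telogen only chin and ventral skin were compared, with 7 calls. In the full fit that pair gave 0 members higher and 7 lower in chin skin, where 1581 and 3304 of 21257 genes were. In that stage Cpa3 was 23.41, 28.03 and 25.52 FPKM in ventral skin, 11.31 and 12.78 in dorsal skin and 8.63 and 5.83 in chin skin, without overlap.

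Averaged over the 6 stages, the proteases were higher outside dorsal skin. Ventral minus dorsal differences were 0.81 ± 0.09 for Tpsb2 (adjusted p = 3.64e-08), 0.63 ± 0.08 for Cma1 (6.09e-07), 0.51 ± 0.08 for Cpa3 (1.13e-05) and 0.21 ± 0.08 for Mcpt4 (0.0452, which 25 alternatives moved over the threshold). These were larger in 2 reduced sets, whose averages cover only stages that keep every domain. Without the libraries labelled chin late anagen and dorsal competent telogen, all of late anagen and competent telogen left the average. Differences were then 1.47 for Tpsb2, 0.93 for Cma1, 0.74 for Cpa3 and 0.51 for Mcpt4. Without competent telogen and early anagen they were 1.36, 1.00, 0.68 and 0.50. Adjusted p ran from 1.88e-10 to 0.00166 over both sets. Each set leaves out a stage at which all 4 proteases had lower means in ventral than dorsal skin. That stage is late anagen in the first set and early anagen in the second. Of the 10 genes 7 were higher and 1 lower, where 19.9% and 17.6% of all genes were, and leaving out replicate 2 of dorsal catagen left 5 calls. Ms4a2 and Mrgprb1, among the 7, did not pass in either reduced set. Chin minus dorsal calls numbered 5 higher and 1 lower, where 17.3% and 9.52% of all genes were. Tpsb2 there was 0.45 ± 0.09 higher in chin skin (adjusted p = 0.00048), and 0.91 and 1.43 in the reduced sets, while Mrgprb2 went from 0.30 to 0.00 without competent telogen and early anagen. Cpa3, Cma1 and Mcpt4 also passed in the full fit, with smaller differences than in either reduced set. They were 0.61, 0.64 and 0.46 in the first reduced set and 0.85, 1.08 and 0.54 in the second. Both sets leave out competent telogen, at which all 4 proteases had lower means in chin than dorsal skin. The second also leaves out early anagen, where Cpa3, Tpsb2 and Cma1 had lower means in chin skin and Mcpt4 was alike (28 and 28.1 FPKM). After quantile normalization 44.3% of all calls between chin and dorsal skin were on the higher side, against 64.5% in the deposited values, and the members gave 4 higher and 1 lower. Chin and ventral skin differed in 3 genes, 1 higher and 2 lower, where 14.5% and 9.13% of all genes were, in 6 without replicate 1 of chin mid anagen, and in 0 without competent telogen and early anagen. Quantile normalization took the share of all chin minus ventral calls on the higher side from 61.4% to 43.8% and the members to 1 higher and 3 lower.

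Stage alone gave calls in 8 of the 10 genes in chin skin, 10 in ventral and 7 in dorsal skin, where 66.2%, 70.2% and 68.5% of all genes were called. The ventral 10 include Fcer1a, which met the filter only through a ventral refractory telogen library and a chin catagen library. The mean of the telogen stages was above that of the later anagen stages for the chymases in chin and ventral skin, though not in every group. Cma1 was 59.4 FPKM in ventral mid anagen, above 51.3 and 33.6 in the ventral telogen groups, and 22.6 FPKM in the libraries labelled chin late anagen, above 15.2 in chin competent telogen. The mean of competent and refractory telogen minus that of mid and late anagen was 1.01 ± 0.15 for Mcpt4 and 1.00 ± 0.15 for Cma1 in chin skin (adjusted p = 2.53e-06 and 3.15e-06), and 1.15 ± 0.14 and 0.93 ± 0.14 in ventral skin (2.22e-07 and 7.21e-06). In chin skin these values were 1.84 and 1.57 without the libraries labelled chin late anagen, and 1.83 and 1.97 without competent telogen and early anagen. In ventral skin without competent telogen and early anagen Mcpt4 was 1.19 (adjusted p = 0.000135) and Cma1 0.63 (0.0253), while Cpa3 went from 0.67 ± 0.14 to 0.09 (adjusted p = 0.771).

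The members are counted here beside genes of other dermal cells. Of the 10 genes 7 were higher and 1 lower in chin skin, where 34.1% and 8.55% of all genes were, and 6 were higher and 0 lower in ventral skin, where 22.9% and 8.82% were. The ventral 6 include Fcer1a, which met the filter in part through ventral refractory telogen. The median difference was 0.66 in chin and 0.40 in ventral skin, against 0.17 and 0.09 over all genes. All 6 dermal fibroblast genes were higher in chin and in ventral telogen, with medians of 0.97 and 0.85, as were 4 of 8 macrophage genes in chin (median 0.46) and 8 of 8 in ventral skin (1.06). Their part in the members' differences was not tested. Without competent telogen and early anagen the members gave 8 higher and 1 lower in chin skin, where 33.3% and 13% of all genes were, and 4 higher and 1 lower in ventral skin, where 14.1% and 17% were. Scaling by the median of ratios lowered the share of all calls on the higher side from 79.9% to 51.7% in chin and from 72.2% to 47.6% in ventral skin, and the members then gave 6 higher and 1 lower in chin and 5 higher and 1 lower in ventral skin.

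In dorsal skin the same contrast rested on the libraries labelled competent telogen. There 4 genes, the proteases, were higher and Kit was lower, where 10.4% and 21% of all genes were. All 8 macrophage genes were higher as well, and 1 without the libraries labelled dorsal competent telogen, a set whose shares of all genes are not given. Tpsb2 was higher by 0.76 ± 0.15 (adjusted p = 0.000249) and Mcpt4 by 0.71 ± 0.14 (0.000208). Scaling by the median of ratios raised the share of all calls on the higher side from 33.2% to 52% and left the members at 4 higher and 1 lower. Without the libraries labelled chin late anagen and dorsal competent telogen only Kit passed, and Cpa3, Tpsb2 and Cma1 turned to -0.40, -0.40 and -0.34 (adjusted p = 0.0931, 0.137 and 0.176). Refractory telogen alone held 3.34 and 2.86 FPKM of Cpa3 in dorsal skin, next to 1.65 to 3.30 in mid and 7.42 to 8.44 in late anagen.

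Kit, the receptor for Kit ligand, was present in all 43 libraries and did not follow the proteases. It was highest in dorsal catagen at 9.69 and 10.04 FPKM and lowest in ventral early anagen at 1.58, 1.69 and 1.79 FPKM, and dorsal catagen overlapped no other group. In refractory telogen it was 2.75, 2.79 and 3.39 FPKM in chin, 1.92 and 3.86 in ventral and 2.51 and 2.94 in dorsal skin, and the 3 domains overlapped. Telogen minus anagen was -0.30 ± 0.09 in chin (adjusted p = 0.0121, and 0.351 without the libraries labelled chin late anagen) and -0.35 ± 0.09 in dorsal skin (0.00319, and -0.84 without the libraries labelled dorsal competent telogen, adjusted p = 3.77e-06). In chin skin it was -0.53 without competent telogen and early anagen (adjusted p = 0.000686), and in ventral skin -0.35 (0.0385) against -0.10 ± 0.09 with them (0.445). Over stages Kit was lower than in dorsal skin by 0.55 in ventral (-0.55 ± 0.05, adjusted p = 3.11e-09, and -0.36 without competent telogen and early anagen) and by 0.23 in chin skin (SE 0.05, adjusted p = 0.00197).

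Kit is also expressed by melanocytes, and most of the melanocyte genes listed moved with it over the 18 groups. Over the 18 group means the correlation of log2(FPKM + 1) with Kit was 0.85 for Tyr and Mlana and 0.84 for Dct, and at least 0.73 in 9 of the 10 melanocyte genes listed, with Sox10 at -0.39. These 9 ranked from 117th (Mlana) to 707th (Pmel) among 14552 genes by correlation with Kit, behind genes led by Klhdc4 and Trit1 (0.95 each). The correlation of Kit with Cpa3 was -0.21. The summed level of the 10 melanocyte genes was 12.9 to 27.5 FPKM in the refractory telogen libraries and 1060 to 1070 in dorsal catagen. In refractory telogen 1 of the 10 was at 0 in chin skin and none elsewhere. The part of melanocytes in the Kit levels was not tested.

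**Figure D3:**
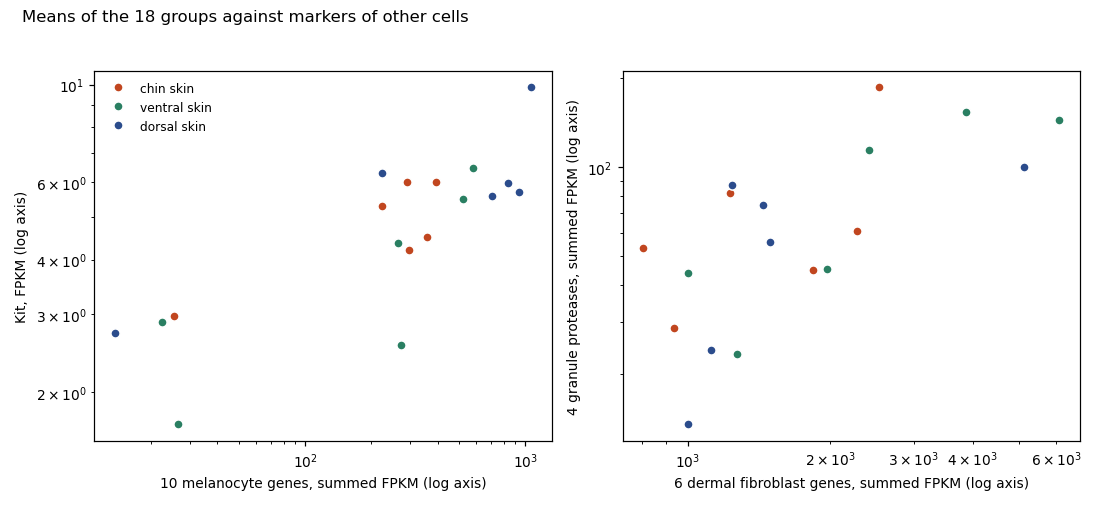
Means of the 18 groups on logarithmic axes: Kit against the summed FPKM of 10 melanocyte genes (left) and the sum of the 4 granule proteases against 6 dermal fibroblast genes (right). Each point is a group coloured by domain. Kit was under 3 FPKM in the 4 groups with the lowest melanocyte sums, and the lowest protease sum, 13.6 FPKM, was in dorsal mid anagen.

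The alpha chain of the IgE receptor was at the edge of detection in the 3 domains, and the beta chain was low. Fcer1a, the alpha chain that binds IgE, was listed at 0 in 24 of 43 libraries and was below the level of 3 fragments in 39. It reached 0.63 FPKM in one ventral refractory telogen library and 0.52 in one chin catagen library, the only values that carried it over the filter of 0.5 FPKM. Ms4a2, the beta chain, had a median of 0.41 FPKM, was below the level of 3 fragments in 5 libraries and was listed at 0 in 2 libraries, both of dorsal mid anagen. It was 0.71, 0.88 and 1.10 FPKM in ventral competent telogen and 0.13 and 0.08 in ventral catagen. All 17 neighbouring pairs of groups overlapped, so the order of Ms4a2 levels was not resolved. At mid anagen it was 0.56 ± 0.19 higher in ventral than dorsal skin (adjusted p = 0.0291).

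Mrgprb1 and Mrgprb2, related receptors of one gene cluster, followed different patterns. Mrgprb1 was low, with a median of 0.39 FPKM, and its higher values included 0.99, 0.85 and 1.06 FPKM in ventral competent telogen and 0.89 and 0.96 in ventral mid anagen. All 17 neighbouring pairs of its groups overlapped. Its correlation over the 18 groups was 0.86 with Cpa3 and 0.83 with Cma1. Mrgprb2 had a median of 1.19 FPKM and its highest group mean in ventral early anagen, at 3.35, 3.44 and 2.93 FPKM. That group overlapped chin early anagen, at 2.08 and 3.89 FPKM, which held the highest single library. Of the 17 neighbouring pairs of its groups 15 overlapped. Its lowest group mean was in the libraries labelled chin late anagen, at 0.25 and 0.38 FPKM. The correlation of Mrgprb2 was 0.22 with Cpa3 and 0.32 with Mrgprb1. In chin skin it was 0.93 ± 0.16 higher in telogen than anagen (adjusted p = 3.82e-05), and 0.39 without the libraries labelled chin late anagen (adjusted p = 0.17). Among domains at mid anagen it did not pass (adjusted p = 0.243), with 0.81 and 3.27 FPKM in the chin libraries.

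Hdc, histidine decarboxylase, makes histamine. It was 3.57, 2.45 and 3.05 FPKM in chin refractory telogen, above 0.76 and 0.82 in ventral and 0.59 and 0.78 in dorsal skin, a chin minus dorsal difference of 1.25 ± 0.18 (adjusted p = 3.21e-06). It was 2.38 and 2.67 FPKM in ventral mid anagen against 0.34, 0.19 and 0.36 in dorsal mid anagen, 1.44 ± 0.18 apart (7.79e-07). Unlike the proteases it stayed high in ventral early anagen, at 1.58, 2.38 and 3.04 FPKM, and near its low values in ventral refractory telogen. Telogen minus anagen was 0.99 ± 0.14 in chin skin (8.58e-07, and 1.53 without competent telogen and early anagen) but 0.03 ± 0.13 in ventral (0.91) and 0.10 ± 0.13 in dorsal skin (0.623).

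**Figure D4:**
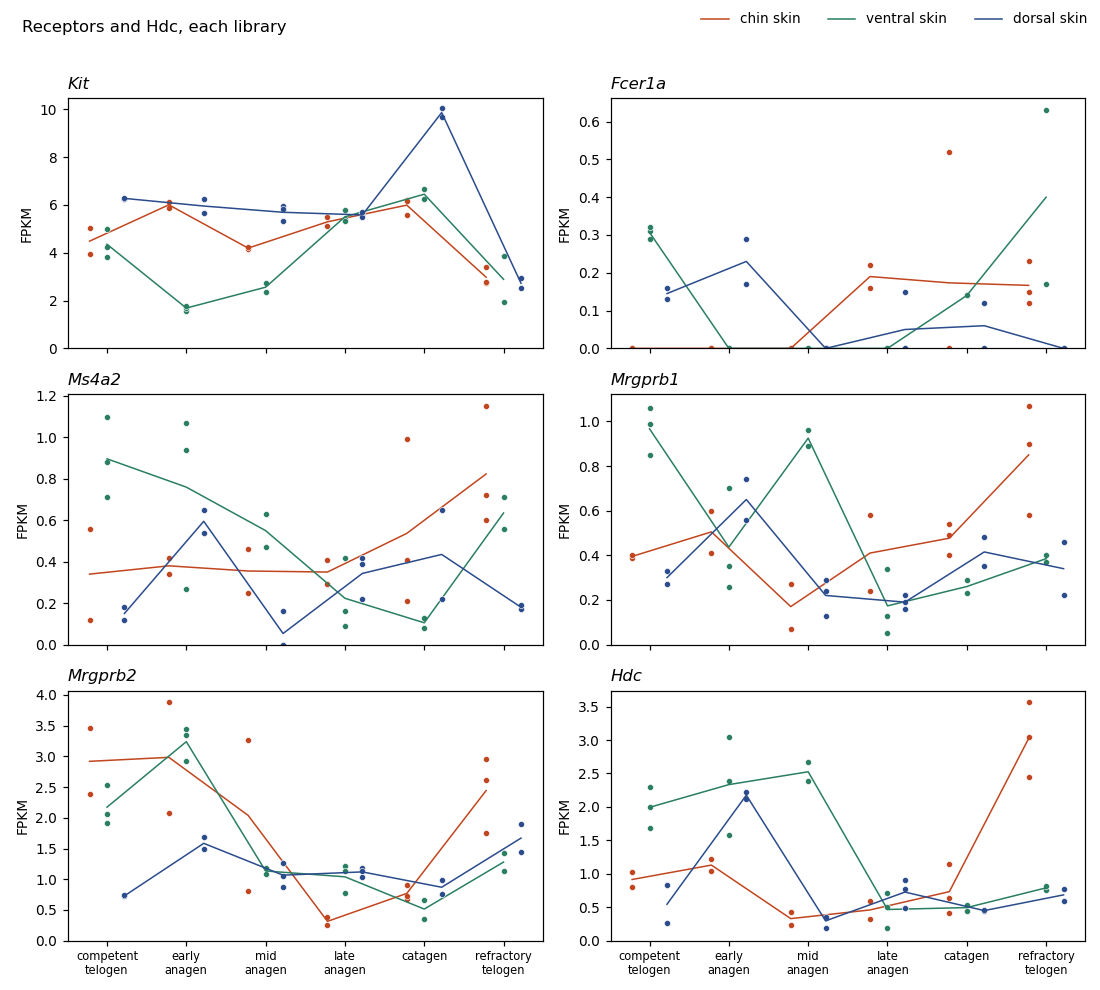
FPKM of Kit, Fcer1a, Ms4a2, Mrgprb1, Mrgprb2 and Hdc at the 6 stages, each on its own vertical axis from 0, with a point for each library and lines through the group means of chin, ventral and dorsal skin. By group mean Kit was highest in dorsal catagen, Hdc in chin refractory telogen and Mrgprb2 in ventral early anagen, while Fcer1a stayed below 0.7 FPKM.

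The 10 genes thus fell into a protease pattern and exceptions to it. Over the 18 group means Cpa3 correlated at 0.97 with Cma1, 0.85 with Tpsb2, 0.84 with Mcpt4, 0.80 with Ms4a2 and 0.78 with Hdc, at 0.49 with Fcer1a, at 0.22 with Mrgprb2 and at -0.21 with Kit. The groups share libraries, depth and tissue content across genes, so no test is given. Among 14552 genes with a mean of at least 1 FPKM, those most like the mean of the 10 were Colec12 (0.96), C1qtnf2, Antxr2, Scara5, Lrrc17 and Cmtm3 (0.93 each), and Mfap5, Fbn1, Fn1 and Tspan11 (0.92 each). Fbn1 encodes fibrillin and Fn1 fibronectin, components of the extracellular matrix. Cma1 was most like Mfap5 and Dpt (0.94 each) and Mcpt4 like Dpt (0.90), Hdc like Fitm2 (0.95), Mrgprb2 like Abhd12b and Adh7 (0.95 each) and Kit like Klhdc4 and Trit1 (0.95 each).

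Other genes of the mast cell programme moved in part with the members. The gamma chain Fcer1g, which other myeloid cells share, was 124 FPKM in chin refractory telogen and 22.4 in dorsal mid anagen and was higher in telogen than anagen by 0.76 ± 0.13 in chin, 1.10 ± 0.13 in ventral and 0.86 ± 0.13 in dorsal skin (adjusted p at most 3.3e-05). In dorsal skin Fcer1g was 0.34 without the libraries labelled dorsal competent telogen (adjusted p = 0.119), and in chin skin 1.55 without those labelled chin late anagen. The list counts that follow stand beside 34.1%, 22.9% and 10.4% of all genes higher and 8.55%, 8.82% and 21% lower in chin, ventral and dorsal telogen. These shares are of the full fit. Without competent telogen and early anagen the shares differ, and they are given above for chin and ventral skin but not for dorsal skin. Counts of that set, and counts without the libraries labelled chin late anagen, are not to be read against the full-fit shares. The shares without the libraries labelled chin late anagen are not given. Of 8 receptor and signalling genes, all tested, 4 were higher in chin telogen, 5 in ventral and 4 in dorsal telogen and none was lower. Without competent telogen and early anagen these were 7, 2 and 1 higher, with 1 lower in dorsal skin. Of 8 eicosanoid, serotonin and histamine enzymes and transporters, 7 tested, 6 were higher in chin telogen, 6 in ventral telogen with 1 lower, and 2 in dorsal telogen with 1 lower, and in that reduced set 6, 5 and 3 were higher. Ptgs1, the prostaglandin synthase COX-1, rose by 1.81 ± 0.17 in chin telogen (adjusted p = 1.4e-09) and Alox5ap, which serves leukotriene synthesis, by 1.03 ± 0.21 (0.000275), with 1.65 and 1.76 in the reduced set. Srgn, the core protein of granule proteoglycans, spanned only 14.7 to 33.1 FPKM over the groups. Of 8 further granule genes 5 passed the filter, with 3 higher in chin telogen, 1 in ventral telogen, and 1, Srgn, lower in dorsal telogen. In the reduced set 5 were higher in chin telogen, and 1 without the libraries labelled chin late anagen.

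Factors and signals that act on mast cells were followed as well. Gata2, a regulator of mast cell genes, was 2.76 FPKM in ventral early anagen, 2.59 in chin refractory telogen and 0.283 in dorsal mid anagen, and it was 0.54 ± 0.14 higher in chin telogen than anagen (adjusted p = 0.00323), and 1.06 without competent telogen and early anagen. Mitf, shared with melanocytes, was lower in that contrast (-0.26 ± 0.10, adjusted p = 0.0363), and did not pass without the libraries labelled chin late anagen (adjusted p = 0.0915). Neither factor passed in ventral or dorsal skin, where Mitf was 0.45 (0.0231) and 0.50 (0.01) higher without competent telogen and early anagen. Kitl, which encodes Kit ligand, was highest in dorsal early anagen at 29.8 FPKM and lowest in dorsal refractory telogen at 2.13, and was higher in chin telogen (0.74 ± 0.17, adjusted p = 0.000727) and lower in dorsal telogen (-1.96 ± 0.16, adjusted p = 1.55e-10). Without competent telogen and early anagen Kitl was -0.15 in chin (adjusted p = 0.465), -0.95 in ventral (0.000257) and -2.48 in dorsal skin (5.91e-10). Without the libraries labelled chin late anagen Kitl was 0.41 in chin skin (adjusted p = 0.156). Its call in chin telogen thus held in neither reduced set. Il33, an alarmin for mast cells, rose in chin telogen by 1.99 ± 0.14 (4.43e-12) and in ventral telogen by 1.14 ± 0.14 (1.33e-07), and without competent telogen and early anagen it was 2.02 and 1.40 there and 0.78 in dorsal skin (adjusted p = 0.00194). Against the same shares of all genes, of 7 ligands, 5 tested, 5 were higher in chin telogen, 3 in ventral telogen and 0 in dorsal telogen, where Kitl was the 1 lower. In the reduced set 4, 2 and 1 were higher. Of 5 release genes, 3 were lower and 1 higher in chin telogen, 2 lower in ventral and 1 lower in dorsal telogen, with Vamp8 between -0.17 and 0.15 in the 3 domains and 0.50 higher in ventral telogen in the reduced set (adjusted p = 8.01e-05). Of 5 receptors for histamine and tryptase 2 were tested, with 1 higher and 1 lower in chin telogen, 0 in ventral telogen and 1 higher in dorsal telogen, and the reduced set gave 0, 1 and 1 higher.

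Ear skin held far more mast cell RNA than dorsal skin. Cma1 was 212.17 and 193.44 FPKM in ear skin, 22.24 and 25.58 in dorsal competent telogen and 2.89, 3.38 and 3.12 in the cartilage/muscle complex. Cpa3 was 74.62 and 81.98, 11.31 and 12.78, and 1.46, 1.05 and 1.13 FPKM in the same tissues. Ear skin was above all 43 skin domain libraries in both genes, whose highest values there were 72.3 and 28 FPKM. Among the 46983 genes Cma1 ranked 667th and Mcpt4 967th by mean level in ear skin. Mcpt4 was 143.90 and 132.73 FPKM and Tpsb2 100.57 and 97.95, again above every library of the 3 domains.

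Of the 10 genes 9 were higher in ear than dorsal skin and Kit was lower, where 44.7% and 14.6% of 19299 genes tested were. Among the 9, Fcer1a and Ms4a2 met the filter of 0.5 FPKM through the ear skin libraries alone. Mrgprb1 reached 0.5 FPKM outside ear skin only in a cartilage/muscle library, at 0.67, so it too needed ear skin to meet the filter. The calls of these genes are thus not independent of the filter. Differences were 3.03 ± 0.10 for Cma1 (adjusted p = 3.63e-06), 2.60 ± 0.12 for Cpa3 (1.29e-05), 2.26 ± 0.13 for Mcpt4 (3.14e-05) and 2.05 ± 0.11 for Tpsb2 (2.91e-05), and the median of the 10 was 2.15 against 0.33 over all genes. Scaling by the median of ratios took the median of all genes to 0.03 and that of the members to 1.68, with 9 higher and 1 lower as before, while the share of all calls on the higher side went from 75.3% to 49.6%. The dorsal libraries are those that lay near chin late anagen. Against dorsal refractory telogen, which holds less of the proteases, Cma1 differed by 4.84 (adjusted p = 3.67e-07) and Cpa3 by 4.27 (2.1e-06), 9 genes passed, and Kit turned to 0.15 (adjusted p = 0.555).

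The receptors were clearly above detection in ear skin. Ms4a2 was 7.07 FPKM in both ear libraries against 0.12 and 0.18 in dorsal skin and 0.11, 0.13 and 0.13 in the cartilage/muscle complex, a difference of 2.81 ± 0.09 from dorsal skin (adjusted p = 3.16e-06). Fcer1a was 1.30 and 0.96 FPKM in ear skin, 0.16 and 0.13 in dorsal skin and 0.41, 0.24 and 0.15 in the complex. Mrgprb1 was 4.44 and 7.80 FPKM and Mrgprb2 5.24 and 4.53 in ear skin, with at most 0.33 and 0.74 in dorsal skin. Mrgprb2 was listed at 0 in all 3 cartilage/muscle libraries. Hdc was 4.6 and 4.22 FPKM in ear skin and at most 0.83 in the other libraries of the table.

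Kit ran the other way, at 3.77 and 2.58 FPKM in ear skin against 6.24 and 6.31 in dorsal skin, -0.82 ± 0.19 (adjusted p = 0.0112). Of the 10 melanocyte genes, 6 were lower and 2 higher in ear skin, and their sum was 178 to 190 FPKM against 221 to 225 FPKM. None was at 0 in either tissue. The lowest melanocyte sum of the 7 libraries, 4.53 FPKM, was in the cartilage/muscle complex, where Kit was 3.34 to 4.71 FPKM.

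**Figure D5:**
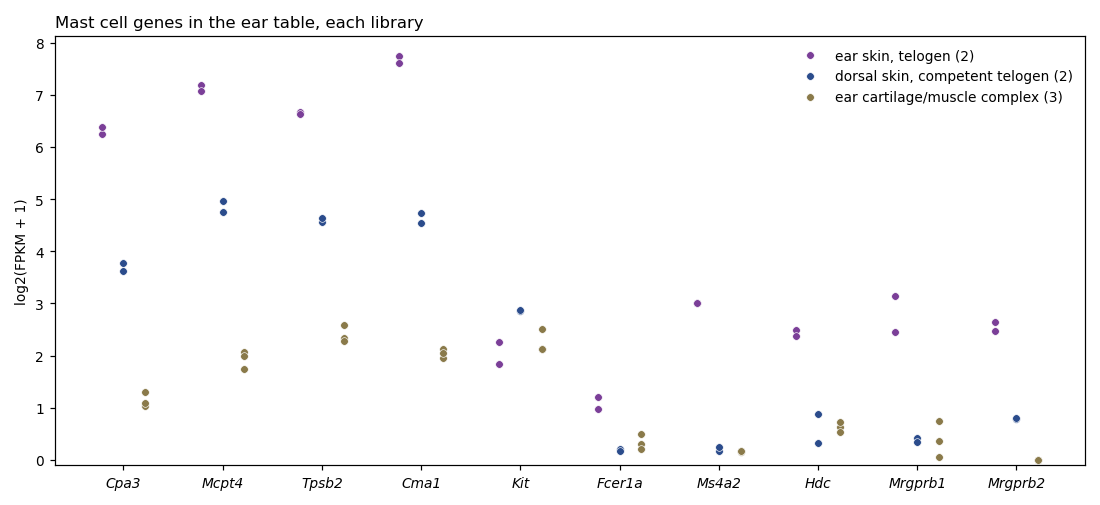
Level of each of the 10 genes as log2(FPKM + 1) in the 7 libraries of the ear table, with a point for each library of ear skin, dorsal skin and the ear cartilage/muscle complex. Ear skin was highest in every gene but Kit, and the cartilage/muscle complex was lowest in the 4 proteases.

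The cartilage/muscle complex of the ear was poor in mast cell RNA. Its libraries carried the defining genes of their label, with 5 cartilage genes summing to 320 to 363 FPKM against at most 0.93 in ear skin. Compared with ear skin 9 of the 10 genes were lower, where 38.5% of all genes were lower, and none was higher, where 28% were. The 9 include Fcer1a and Ms4a2, which met the filter through ear skin alone, and Mrgprb1, which needed ear skin to meet it. Over all genes the share of calls on the higher side was 42.1%, and 54.3% after quantile normalization, with the members at 0 and 9 in both. The largest differences were -5.63 ± 0.09 for Cma1 (adjusted p = 7.83e-08) and -5.18 ± 0.12 for Mcpt4 (2.8e-07), and Kit did not pass (0.20 ± 0.17, adjusted p = 0.34). Compared with dorsal competent telogen 6 were lower, where 28.3% of all genes were lower, and 0 were higher, where 42.8% were. That share went from 60.2% to 47.6% of all calls with scaling by the median of ratios, with the members at 0 and 6 in both. Against dorsal refractory telogen 4 passed, and Tpsb2 turned to 0.13 (adjusted p = 0.328).

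The wider mast cell lists are read against the 44.7% of all genes that were higher in ear than dorsal skin. All 5 granule genes tested, all 7 mediator genes tested, 7 of 8 receptor and signalling genes and all 5 ligands tested were higher. Alox5ap was 71.2 FPKM against 20.8 and Ptgs1 98.5 against 8.96, differences of 1.73 ± 0.07 (adjusted p = 1.02e-05) and 3.32 ± 0.16 (1.7e-05). Tpsab1, the neighbouring tryptase gene, singled out after its values were seen, was 36.1 ± 4.38 FPKM (SD, n = 2) in ear skin and 5.99 ± 1.16 (n = 3) in the complex, but at most 0.513 in any group mean of the 3 domains. Of the release genes 1 was higher and 1 lower, and of the mediator receptors 1 was lower. Of the 2 transcription factors tested Gata2 was higher, at 7.20 against 0.605 FPKM, and Mitf lower, at 3.73 against 10.8.

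Other cell types also differed between ear and dorsal skin. All 8 macrophage genes were higher in ear skin, with sums of 952 to 1020 FPKM against 371 to 374, as were all 6 dermal fibroblast genes, with 10400 to 10700 against 1240 FPKM, while hair shaft genes summed to 44.4 to 47.8 against 9560 to 9660 FPKM. Of 3 basophil genes Mcpt8 and Prss34 were at most 0.045 FPKM in the ear skin means and Cd200r3 was 3.21. The share of tissue composition in the ear difference was not tested.

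In mm10 Cpa3 spans chr3:20215620-20242181, Mcpt4 chr14:56059629-56062313, Tpsb2 chr17:25366305-25369098, Cma1 chr14:55941451-55944675 and Kit chr5:75574916-75656722. Fcer1a spans chr1:173221284-173227214, Ms4a2 chr19:11615523-11623719, Hdc chr2:126593667-126619299, Mrgprb1 chr7:48444113-48456342 and Mrgprb2 chr7:48550965-48558086, and Kit and Tpsb2 lie on the plus strand, the others on the minus strand. The FPKM of a gene summarises its exons. Cma1 and Mcpt4 lie in a cluster of 15 related protease genes on chromosome 14, Tpsb2 among 3 tryptase genes on chromosome 17 and the Mrgprb genes among 6 on chromosome 7, and reads shared by close copies can be split between them. Cpa3 overlaps the microRNA gene Mir7007 on the same strand. At the estimated depth, 1 fragment was worth 0.0276 to 0.118 FPKM of Cpa3 and 0.0431 to 0.188 FPKM of Fcer1a, so that a median library held 161 fragments of Cpa3, 10.8 of Ms4a2 and 0 of Fcer1a.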

How the data were processed

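Whole-tissue RNA of chin, ventral and dorsal skin and of the ear was sequenced by the authors as paired-end SMART-seq2 libraries and quantified with RSEM 1.2.25 on mm10 with GENCODE vM8 annotation. The deposited values are FPKM (fragments scaled to transcript length and sequencing depth) for each gene and library, rounded to 2 decimals. The study states a batch-effect correction and names neither the batches nor the method, so its effect on these values could not be checked and no within-batch value can be given. Whether counting used strand is not given in the sources used here.

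Libraries were grouped by their titles. FPKM is not a count, so log2(FPKM + 1) was fitted with limma 3.58.1 in R 4.3.3 (variance trend, empirical Bayes) over genes that reached 0.5 FPKM in 2 or more libraries, with Benjamini-Hochberg adjustment over all genes tested and a threshold of 0.05. Skin results came from 1 fit of 43 libraries in 18 groups and ear results from 1 fit of 7 libraries. Tests were two-sided. A group's ± is the SD over libraries, and a difference's ± is the SE of the fit. On simulated data with known changes the scripts were tested first. Depth was estimated from the steps of the FPKM values in genes with 1 transcript, at 6836773 to 26811463 fragments in the skin libraries and 7092112 to 29012499 in the ear libraries. The floor of 3 fragments covers counting error only.

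The 10 members were all named. Of the other lists, counts are given with the 2 or 3 most abundant genes, and genes of like pattern were ranked by Pearson correlation over 18 group means. Members and lists were chosen with earlier results of these data known. Alternatives were another pseudocount (0.1), other filters, quantile normalization, a rescaling to TPM, size factors from the median of ratios, a constant prior variance, a replicate block, fits by stage or domain, dorsal refractory telogen as the dorsal group and each library left out in turn. Added after the data were seen were fits without competent telogen and early anagen, without chin late anagen and dorsal competent telogen, and without ventral early anagen. In these fits the interaction and the averages over stages used only stages that kept every domain. A test among domains at a stage compared the domains left there.

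Positions are of mm10 (GENCODE vM21 and RefSeq GRCm38.p6). Ear skin columns are numbered 2 and 3 where the titles have replicates 1 and 2, so they were used as 2 unnumbered replicates. Flg, listed in several rows, and Krt85, not found by name, were not used.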

Additional observations from a re-analysis of the deposited data

Results flagged for a closer look

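The response to hair cycle stage differed between chin, ventral and dorsal skin in each of the 10 genes, by the limma test of the domain by stage interaction over 43 libraries. Benjamini-Hochberg adjusted p was 4.15e-15 for Cma1, 7.32e-15 for Tpsb2, 1.09e-13 for Cpa3 and 2e-13 for Mcpt4. It was 3.95e-08 for Hdc, 7.19e-08 for Kit, 3.21e-05 for Mrgprb1 and 0.000551 for Mrgprb2. It was 0.00738 for Ms4a2 and 0.0137 for Fcer1a, both measured near their detection limit. Fcer1a met the filter of 0.5 FPKM in only 2 of the 43 libraries. The test passed in 73.3% of all genes. Groups held 2 or 3 libraries, too few to look for single libraries that stand far from their group.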

How the results depend on the processing

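Of 18827 gene results under alternatives, 18304 kept their side of the threshold, 378 lost a call and 134 gained one. Another 11 turned direction where the reported or the alternative result passed. Turns between results that did not pass are within the 18304. Tests over several groups at once have no direction and were judged by the threshold alone. Of 921 counts of members called, 914 stayed within 1.5 times the reported count. The replicate number does not pair libraries: same-numbered libraries had a median correlation of deviations of 0.00, as did others at -0.00, and 9 of 327 pairs were over 0.1. With the replicate block 10 members passed the interaction, 7 the ventral minus dorsal contrast, 10 the ear skin minus dorsal contrast, 9 cartilage/muscle minus ear skin and 5 cartilage/muscle minus dorsal skin.

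Counts that moved were ventral minus dorsal over stages (8 reported, 5 to 9 with 1 library left out), chin minus ventral over stages (3 reported, 2 to 6 with 1 library left out, 0 without competent telogen and early anagen), domains at early anagen (7 reported, 4 without ventral early anagen), domains at refractory telogen (8 reported, 5 of the 9 tested in a fit of that stage alone, where fewer libraries enter) and telogen minus anagen in dorsal skin (5 reported, 1 without competent telogen and early anagen, 1 without chin late anagen and dorsal competent telogen). With 1 library left out, members called in ear minus dorsal skin numbered 7 to 10.

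Without competent telogen and early anagen, Tpsb2 chin minus ventral over stages turned to 0.07, and telogen minus anagen in dorsal skin turned to -0.40 for Cpa3, -0.34 for Cma1 and -0.40 for Tpsb2. Without chin late anagen and dorsal competent telogen the last 3 were -0.40, -0.34 and -0.40. Kit ventral minus dorsal at refractory telogen was 0.02 (adjusted p = 0.995), but -0.35 without ventral replicate 1 (0.0334) and 0.39 without ventral replicate 2 (0.03). With dorsal refractory telogen as the dorsal group, Kit turned to 0.15 in ear minus dorsal skin and to 0.36 in cartilage/muscle minus dorsal skin, and Tpsb2 to 0.13 in the latter. Where libraries were exchanged or left out, the cause beyond their absence was not tested. Depth limits Fcer1a and Ms4a2 most.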
